A study of Mus musculus with 10 samples.

Results

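Insulin signalling was followed through 8 genes, Insr, Igf1r, Irs1, Irs2, Akt1, Akt2, Foxo1 and Foxo3, named by symbol. No measured value entered the rule, but the genes were chosen with earlier results of these data known. All peaks of the chromatin table carrying 1 of these symbols were taken, which gave 118 of 108253 peaks and 8 of 25400 genes. The peaks were spread unevenly, with 51 in Igf1r, 31 in Foxo3, 11 in Foxo1, 9 in Insr, 7 in Akt2, 4 in Irs1, 3 in Irs2 and 2 in Akt1. Of the 118 peaks, 14 lay in promoters and 86 in introns.

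The retinas came from wild-type C57Bl/6J mice at postnatal day 28, with the sclera and the pigment epithelium removed, and were kept as explants for 48 h in medium with 5 mM or 25 mM glucose. CUT&Tag, in which an antibody directs a DNA-cutting enzyme to a histone mark, was run on 500000 dissociated cells per assay for H3K18La (lactylation of lysine 18 of histone H3) and H3K27Ac (acetylation of lysine 27). Each glucose level had 3 H3K18La and 2 H3K27Ac libraries, 10 in all, and the labels put all of them in batch 1. The comparison asks whether raised glucose changes either mark at these genes. The study's methods speak of biological replicates, but the labels do not say whether these came from separate animals, so p-values measure the spread between these libraries, which may be technical.

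Insulin and insulin-like growth factor 1 bind the receptor tyrosine kinases encoded by Insr and Igf1r. The active receptors phosphorylate the adaptors Irs1 and Irs2, which recruit PI3-kinase, and its lipid product brings the kinases Akt1 and Akt2 to the membrane. Akt phosphorylates Foxo1 and Foxo3, transcription factors that are then kept out of the nucleus. In the retina this pathway is known for its part in photoreceptor survival and glucose use, and H3K27Ac is known as a mark of active promoters and enhancers.

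The sequences on which the results turn are 4 promoters and 2 intronic windows. The Foxo1, Foxo3 and Akt2 promoters are shown as examples of those whose peaks rose in H3K27Ac, as peaks at Irs2 and Igf1r also did, with the largest such change at Akt2, the Irs1 promoter because its peak had the H3K18La change closest to 0 among the promoter peaks, and the windows of Igf1r and Foxo3 because these were the non-promoter peaks of those genes with the highest mean RPKM over all 10 libraries. They were read 5′ to 3′ from RefSeq on GRCm38.p6, the build of the peaks, and 7 of the 8 genes had a promoter entry. Each promoter holds up to 250 bases before a RefSeq start site, without bases annotated as exon on the same strand, and each window is the central 300 bases of its peak on the plus strand. The promoters lie at chr1:82291440-82291689 (Irs1, minus), chr7:27591302-27591551 (Akt2, plus), chr3:52268087-52268335 (Foxo1, plus) and chr10:42276756-42276945 (Foxo3, minus). The windows lie at chr7:68135025-68135324 in intron 2 of Igf1r and chr10:42241769-42242068 in intron 2 of Foxo3. Capitals mark GGGCGG (the GC box of SP and KLF factors), GTAAACA (FOXO), CACGTG (the E-box) or TAATCC (CRX), or their reverse complements.
Irs1 promoter: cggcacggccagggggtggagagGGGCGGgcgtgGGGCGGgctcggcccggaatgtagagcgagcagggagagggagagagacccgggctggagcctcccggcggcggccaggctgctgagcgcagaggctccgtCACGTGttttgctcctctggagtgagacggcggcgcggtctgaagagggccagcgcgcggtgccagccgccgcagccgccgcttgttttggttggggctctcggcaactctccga
Akt2 promoter: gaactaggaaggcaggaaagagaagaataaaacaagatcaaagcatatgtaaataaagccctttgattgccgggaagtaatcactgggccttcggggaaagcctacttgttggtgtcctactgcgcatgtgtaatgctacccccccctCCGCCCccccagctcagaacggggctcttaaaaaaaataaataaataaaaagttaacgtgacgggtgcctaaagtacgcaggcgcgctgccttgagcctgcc
Foxo1 promoter: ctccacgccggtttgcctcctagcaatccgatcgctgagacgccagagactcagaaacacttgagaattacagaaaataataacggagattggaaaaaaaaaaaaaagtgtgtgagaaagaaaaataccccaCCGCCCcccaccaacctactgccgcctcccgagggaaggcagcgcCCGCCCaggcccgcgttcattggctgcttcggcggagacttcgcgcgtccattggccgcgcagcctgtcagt
Foxo3 promoter: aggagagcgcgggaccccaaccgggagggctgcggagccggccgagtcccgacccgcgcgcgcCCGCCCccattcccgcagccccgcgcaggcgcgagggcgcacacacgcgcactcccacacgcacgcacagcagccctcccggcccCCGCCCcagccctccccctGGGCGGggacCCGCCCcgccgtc
Igf1r intron 2 window: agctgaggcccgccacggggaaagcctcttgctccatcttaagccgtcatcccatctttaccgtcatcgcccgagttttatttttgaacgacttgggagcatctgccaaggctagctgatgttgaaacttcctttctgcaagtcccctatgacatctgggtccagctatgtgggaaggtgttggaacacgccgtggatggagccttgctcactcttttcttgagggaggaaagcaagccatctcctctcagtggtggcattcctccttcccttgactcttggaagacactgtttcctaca
Foxo3 intron 2 window: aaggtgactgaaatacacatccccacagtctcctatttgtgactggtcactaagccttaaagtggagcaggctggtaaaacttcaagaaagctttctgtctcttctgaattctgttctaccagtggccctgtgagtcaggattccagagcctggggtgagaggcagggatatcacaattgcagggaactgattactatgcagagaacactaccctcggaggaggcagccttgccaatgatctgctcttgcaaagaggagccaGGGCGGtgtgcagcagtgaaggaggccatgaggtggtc

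The Foxo3 promoter is the richest in GC boxes of the 4, with 4 in the 190 bases printed and 5 in the full 250 bases before its start site. Motifs were searched on both strands in the full 250 bases, bases left out of the printed runs included. Of the 11 such windows of these genes, GGGCGG was found in 7 (63.6%), against 32.7% of the 32851 promoters of the same length, where the median GC content was 58.8% in the 11 windows and 52.4% over all promoters. CACGTG was found in 2 (18.2% against 6.02%), GTAAACA in 1 (9.09% against 3.17%) and TAATCC in 0 (against 6.25%). In the central 300 bases of the 104 non-promoter peaks, GGGCGG was found in 7 (6.73% against 5.54% of 91109 such peaks), CACGTG in 8 (7.69% against 4.55%), GTAAACA in 6 (5.77% against 3.85%) and TAATCC in 10 (9.62% against 12.3%). No window held overlapping matches of different motifs. The windows of 1 gene share their locus, and a match is only a run of letters.

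The libraries differed in depth. The RPKM values (reads per kilobase of peak and 1000000 reads) came out as whole reads when the smallest nonzero product of value and peak width in a library was taken as a single read. That gave denominators of 1358008 to 7424470 per library, and what they count is not stated. The 118 peaks held 256 to 1074 reads per library for H3K18La at 5 mM, 1352 to 2534 at 25 mM, 2085 to 4567 for H3K27Ac at 5 mM and 10032 to 11808 at 25 mM. The deeper mark did not have the smaller error, since the gene-level SE was larger for H3K27Ac than for H3K18La in each of the 8 genes. Over the 118 peaks, the chi-square per degree of freedom between the 2 H3K27Ac libraries at 25 mM was 4.41. It was 0.901 to 1.68 for pairs of replicates in the other groups. This ratio of variances grows with depth at a given relative difference, and the 2 libraries with 4.41 held the most reads. The share of reads in peaks, taken over that denominator, was 11.8% to 12% for H3K18La at 5 mM and 31.2% to 35.0% at 25 mM. For H3K27Ac it was 21.1% and 31.5% at 5 mM and 69.5% and 56.5% at 25 mM. This share moved with glucose, and it depends on the peak set, whose number of peaks equals that of the study's peaks merged over ages of developing retina. The median log2 fold change of all peaks was 0.76 for H3K18La and 0.58 for H3K27Ac, and changes of single genes are to be read against it. A larger share of marked cells and more mark per cell cannot be told apart in bulk tissue.

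The tissue labels were checked against marker genes, on RPKM summed over each list, beside the 30.9% and 43.3% of all genes called higher in H3K18La and H3K27Ac. All 7 rod markers were higher at 25 mM in both marks, and their summed level was 9.37 to 11.2 for H3K18La at 5 mM, 39.6 to 75.2 at 25 mM, 36.6 to 63.7 for H3K27Ac at 5 mM and 159 to 240 (range of libraries) at 25 mM. Of 5 Müller glia markers 3 rose in H3K18La and 2 in H3K27Ac, of 5 bipolar markers 2 and 5, of 5 cone markers 4 and 3, of 3 amacrine markers 1 and 1, and of 3 ganglion cell markers 1 and 0. Of 4 microglia markers 3 and 1 rose, of 3 astrocyte markers 2 and 0, of 3 horizontal cell markers 0 and 0, and of 3 endothelial markers 0 and 0, with Cldn5 lower in H3K27Ac. Of 4 pigment epithelium markers 1 rose in each mark (Rgr, which glia also express), and Rpe65 was listed at 0 in every library. The part of cell composition in the changes below was not tested.

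Summed over all peaks of a gene, each of the 8 genes had a higher mean RPKM at 25 mM than at 5 mM in both marks. Most of all 25400 genes rose as well, with median log2 fold changes of 0.69 and 0.70. When libraries were scaled to their reads in peaks, 4 of 8 in each mark had a log2 fold change below 0 and 4 above 0, the latter beside 9035 and 8488 of all 25400 genes in H3K18La and H3K27Ac. H3K18La rose past the threshold in 5 of 8, Igf1r, Irs2, Akt2, Foxo1 and Foxo3, where 30.9% of all genes were called higher. H3K27Ac rose in 6 of 8, all but Insr and Foxo1, where 43.3% of all genes were called higher. The 25 mM libraries lay above all 5 mM libraries in 7 of 8 genes for H3K18La, all but Irs1 (46.6% of all genes), and in 8 of 8 for H3K27Ac (65.6% of all genes). The median log2 fold change of the 8 genes was 1.16 for H3K18La and 1.14 for H3K27Ac, beside 0.69 and 0.70 over all genes. Tests were limma on log2(RPKM + 0.5), which understates the change of low values, with Benjamini-Hochberg adjustment over all genes or peaks at 0.05. The H3K27Ac calls rest on 2 libraries per glucose level: without the 25 mM replicate 2 they fell to 3 genes, and to 0 without any 1 of the other libraries (2, 5 and 0 genes at an unadjusted p under 0.05 without the 5 mM replicate 1, the 5 mM replicate 2 and the 25 mM replicate 1), and no single peak kept an H3K27Ac call without any 1 library. Among all features these fits called 0 of 108253 peaks each (limma, 5836 to 36319 at an unadjusted p under 0.05), and of 25400 genes 241 without the 25 mM replicate 1, 4742 without the 25 mM replicate 2 and 0 without either 5 mM library (5657 and 11643 at an unadjusted p under 0.05).

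**Figure D1:**
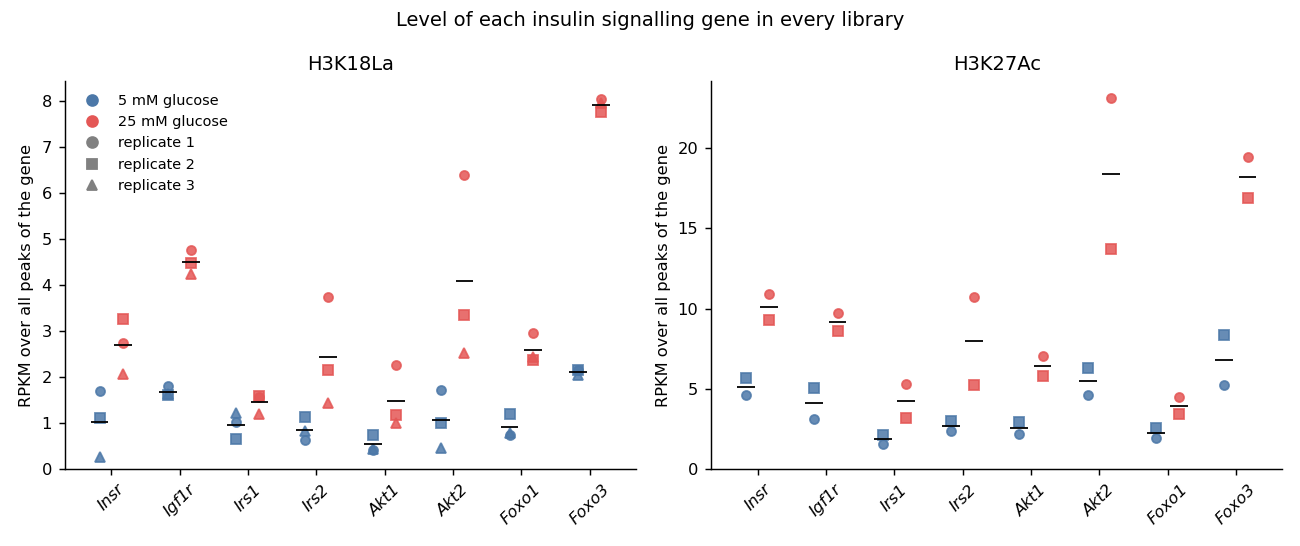
RPKM over all peaks of each gene (vertical axes, linear from 0) in every library, for H3K18La (left) and H3K27Ac (right), with colours for glucose, symbols for replicates and a black line for the mean. The H3K18La values of Foxo3 form tight groups around means of 2.11 and 7.91 RPKM, whereas replicate 1 at 25 mM stands above the others in Akt2 and Irs2 in both marks.

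Insr encodes the insulin receptor. Its H3K18La level over 9 peaks was 1.7, 1.11 and 0.264 RPKM at 5 mM and 2.74, 3.26 and 2.05 RPKM at 25 mM. The groups did not overlap but the 5 mM libraries were widely spread, and the log2 fold change of 1.18 ± 0.40 (SE) did not pass (adjusted p = 0.0647). H3K27Ac was 4.61 and 5.66 RPKM at 5 mM and 10.9 and 9.29 RPKM at 25 mM. Both 25 mM libraries were above both 5 mM libraries, with a log2 fold change of 0.91 ± 0.43 (limma, adjusted p = 0.0704).

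The Insr promoter peak (chr8:3278420-3279953) had the highest mean H3K27Ac of the 14 promoter peaks, at 9.95 and 12.5 RPKM at 5 mM and 32.9 and 23.9 RPKM at 25 mM. Its mean ranked at percentile 98 of all peaks at 5 mM and 97.1 at 25 mM. H3K18La there was 2.78, 1.38 and 0.48 RPKM at 5 mM and 4.64, 4.65 and 1.98 RPKM at 25 mM, with groups that overlapped and mean ranks at percentiles 76.6 and 77.8. The log2 fold changes were 1.29 ± 0.46 (limma, adjusted p = 0.0577) and 1.15 ± 0.51 (limma, adjusted p = 0.132). The highest other peak, which here and below is the non-promoter peak of the gene with the highest mean RPKM over all 10 libraries (chr8:3259916-3261567), lies within 1000 bases of a start site of Gm16180 and overlaps an exon of that gene, so its reads cannot be assigned to Insr alone. Its H3K18La values were 3.16, 1.75 and 0.446 RPKM at 5 mM and 4, 5.36 and 2.45 RPKM at 25 mM, and its H3K27Ac values were 3.36 and 5.65 RPKM at 5 mM and 9.68 and 9.54 RPKM at 25 mM. The H3K18La groups overlapped, the H3K27Ac groups did not, and neither change passed (adjusted p = 0.146 and 0.0894). Of the 9 Insr peaks, 1 intronic peak rose in H3K18La and 0 in H3K27Ac, where 20.6% and 16.4% of all peaks were called higher.

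Igf1r encodes the receptor for insulin-like growth factor 1. H3K18La over its 51 peaks was 1.8, 1.6 and 1.64 RPKM at 5 mM and 4.76, 4.48 and 4.24 RPKM at 25 mM. The libraries of each group lay close together and the groups were well apart, with a log2 fold change of 1.19 ± 0.14 (limma, adjusted p = 9.93e-04). H3K27Ac was 3.13 and 5.07 RPKM at 5 mM and 9.7 and 8.59 RPKM at 25 mM. The groups did not overlap, although the 5 mM libraries differed from each other, and the log2 fold change was 1.10 ± 0.42 (limma, adjusted p = 0.0235).

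A pair of Igf1r promoter peaks flanked the annotated start site of the gene. The upstream one (chr7:67950685-67952540) had 1.28, 0.832 and 0.397 RPKM at 5 mM and 2.74, 2.12 and 3.09 RPKM at 25 mM in H3K18La and 3.36 and 3.56 RPKM at 5 mM and 16.8 and 5.44 RPKM at 25 mM in H3K27Ac. Both marks had groups that did not overlap, replicate 1 was far above replicate 2 in H3K27Ac at 25 mM, and neither change passed (adjusted p = 0.0729 and 0.0509). The downstream one (chr7:67952946-67953971) had 1.85, 0.564 and 0.718 RPKM at 5 mM and 5.45, 3.6 and 0.986 RPKM at 25 mM in H3K18La and 1.8 and 3.61 RPKM at 5 mM and 14.5 and 8.01 RPKM at 25 mM in H3K27Ac. Its H3K18La groups overlapped, its H3K27Ac groups did not, and only H3K27Ac passed, with a log2 fold change of 1.88 ± 0.44 (limma, adjusted p = 0.0155) against 1.19 ± 0.57 for H3K18La (adjusted p = 0.161). The difference between the marks was itself not called (adjusted p = 0.974).

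The other 2 Igf1r promoter peaks lie inside the gene, at start sites of retained-intron transcripts. At chr7:68148520-68149714, H3K18La was 1.19, 2.91 and 0.616 RPKM at 5 mM and 3.83, 6.38 and 5.92 RPKM at 25 mM and H3K27Ac was 3.68 and 4.85 RPKM at 5 mM and 7.68 and 6.54 RPKM at 25 mM. The groups did not overlap in either mark, and H3K18La rose by a log2 fold change of 1.63 ± 0.45 (limma, adjusted p = 0.0194) while H3K27Ac had 0.68 ± 0.41 (adjusted p = 0.265). The H3K18La call was lost without the 25 mM replicate 2 or 3 (adjusted p = 0.104 and 0.0773). At chr7:68211556-68212690, H3K18La was 2.51, 1.36 and 0 RPKM at 5 mM and 3.14, 4.55 and 4.16 RPKM at 25 mM and H3K27Ac was 3.26 and 4.54 RPKM at 5 mM and 5.39 and 7.71 RPKM at 25 mM. The groups were again separate, but neither change passed (adjusted p = 0.0616 and 0.274).

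Most Igf1r peaks lay far from its promoters. The highest non-promoter peak, at chr7:68134952-68135397 in intron 2, had 4.25, 4.76 and 4.95 RPKM at 5 mM and 12.5, 11 and 14.4 RPKM at 25 mM in H3K18La. Within each group these values were above every promoter value of the gene, and the change passed with a log2 fold change of 1.35 ± 0.25 (limma, adjusted p = 0.00202). H3K27Ac was 5.7 and 15.2 RPKM at 5 mM and 31.2 and 26.9 RPKM at 25 mM, again separate, with 1.58 ± 0.50 (limma, adjusted p = 0.0353). The printed window from this peak held none of the 4 motifs. Pooled over the 30 peaks of intron 2, H3K18La was 2.05, 1.63 and 1.87 RPKM at 5 mM and 5.06, 5.12 and 4.58 RPKM at 25 mM, and 16 of the 30 peaks rose in H3K18La and 8 in H3K27Ac, where 20.7% and 11.9% of all non-promoter peaks were called higher.

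**Figure D2:**
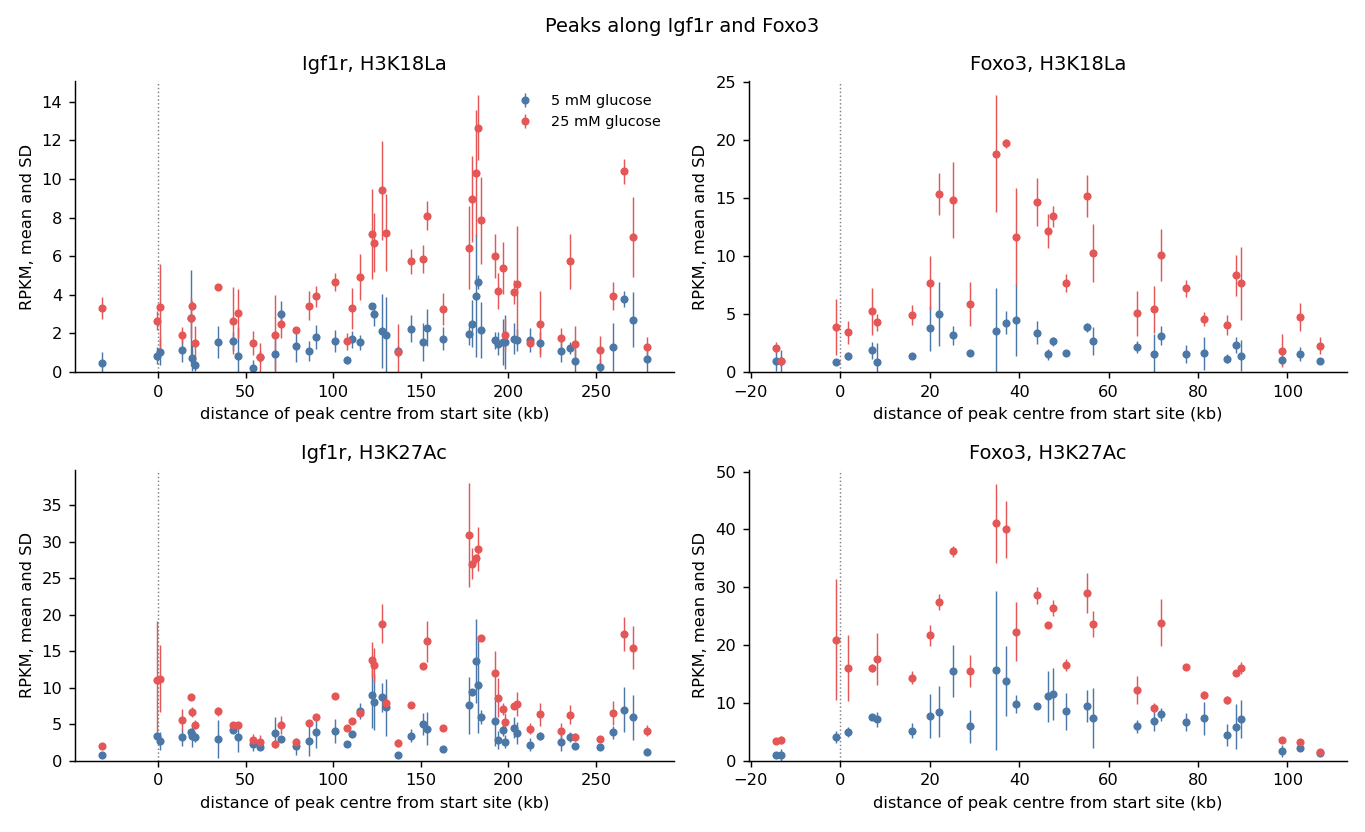
Mean RPKM with SD (vertical axes, from 0) of every peak of Igf1r (left) and Foxo3 (right) against the distance of the peak centre from the start site in kb, along transcription, for H3K18La (top) and H3K27Ac (bottom), with colours for glucose. The highest peaks of Igf1r at 25 mM stand far into the gene, those of Foxo3 form a broad block inside the gene, and the peaks at the start sites are lower in both genes.

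Irs1 and Irs2 encode the main adaptors of the insulin receptor. H3K18La over the 4 Irs1 peaks was 1.02, 0.643 and 1.23 RPKM at 5 mM and 1.57, 1.58 and 1.2 RPKM at 25 mM. This was the 1 gene whose H3K18La groups overlapped, with a log2 fold change of 0.43 ± 0.25 and an interval of -0.17 to 1.03 (95%; adjusted p = 0.236). H3K27Ac was 1.54 and 2.15 RPKM at 5 mM and 5.3 and 3.21 RPKM at 25 mM, separate between groups, and rose by 1.00 ± 0.34 (limma, adjusted p = 0.0134). The difference between the changes of the marks was 0.56 ± 0.41, with an interval of -0.36 to 1.48 and an adjusted p of 0.827, so it was not shown.

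The Irs1 promoter peak (chr1:82290576-82291860) had 1.11, 1.05 and 2.87 RPKM at 5 mM and 1.58, 1.34 and 1.57 RPKM at 25 mM in H3K18La. The groups overlapped, and the log2 fold change was -0.03 ± 0.49 with an interval of -1.07 to 1.02 (limma, adjusted p = 0.985). In H3K27Ac it was 2.52 and 2.88 RPKM at 5 mM and 5.52 and 3.04 RPKM at 25 mM, with separate groups but no call (adjusted p = 0.405). The highest other peak, in intron 1 at chr1:82282538-82283873, had 1.06, 0.722 and 0 RPKM at 5 mM and 2.28, 3.13 and 2.02 RPKM at 25 mM in H3K18La. Its 25 mM libraries were all higher, but on 0 to 5 reads per library at 5 mM the change did not pass (adjusted p = 0.0592). H3K27Ac was 1.9 and 3.01 RPKM at 5 mM and 9.57 and 5.75 RPKM at 25 mM and rose by 1.45 ± 0.42 (limma, adjusted p = 0.0273).

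Irs2 was measured mainly through its promoter peak. Over all 3 peaks, H3K18La was 0.635, 1.12 and 0.822 RPKM at 5 mM and 3.75, 2.14 and 1.43 RPKM at 25 mM and H3K27Ac was 2.37 and 3.02 RPKM at 5 mM and 10.7 and 5.23 RPKM at 25 mM. The groups were separate in both marks, replicate 1 led the 25 mM libraries in both, and the log2 fold changes were 1.05 ± 0.33 (limma, adjusted p = 0.0494) and 1.34 ± 0.39 (limma, adjusted p = 0.00394). The H3K18La call was lost without any 1 of the 5 libraries other than the 25 mM replicate 3 (adjusted p between 0.077 and 0.12). The promoter peak (chr8:11005882-11009657), which lies within 1000 bases of a start site of 9530052E02Rik, had 0.502, 1.02 and 0.975 RPKM at 5 mM and 4.18, 2.34 and 1.43 RPKM at 25 mM in H3K18La and 2.63 and 2.94 RPKM at 5 mM and 11.9 and 5.07 RPKM at 25 mM in H3K27Ac. The groups were separate in both marks, and only H3K27Ac passed (limma, 1.34 ± 0.44, adjusted p = 0.0418, against 1.17 ± 0.50 and 0.119 in H3K18La). The highest other peak, in intron 1 at chr8:11002008-11002369, had 1.31, 2.67 and 0 RPKM at 5 mM and 2.81, 1.36 and 1.86 RPKM at 25 mM in H3K18La and 1.92 and 6.23 RPKM at 5 mM and 8.83 and 10.4 RPKM at 25 mM in H3K27Ac. The H3K18La groups overlapped on 0 to 5 reads per library, and neither change passed (adjusted p = 0.431 and 0.0543).

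Akt1 and Akt2 encode kinases of the same family, and Akt2 is the form best known for insulin-driven glucose uptake. H3K18La over the 2 Akt1 peaks was 0.422, 0.744 and 0.437 RPKM at 5 mM and 2.26, 1.17 and 1 RPKM at 25 mM, the lowest level of the 8 genes at 5 mM. The groups were separate and the log2 fold change of 0.89 ± 0.32 did not pass (limma, adjusted p = 0.0767). H3K27Ac was 2.19 and 2.91 RPKM at 5 mM and 7.05 and 5.79 RPKM at 25 mM and rose by 1.18 ± 0.38 (limma, adjusted p = 0.0078).

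The Akt1 promoter peak (chr12:112673151-112675751) had 0.365, 0.668 and 0.283 RPKM at 5 mM and 2.15, 1.23 and 1.17 RPKM at 25 mM in H3K18La and 2.13 and 2.72 RPKM at 5 mM and 6.52 and 4.56 RPKM at 25 mM in H3K27Ac. Both pairs of groups were separate and neither change passed (adjusted p = 0.179 and 0.082). The other peak, intergenic at chr12:112652874-112653645, had 0.614, 1 and 0.954 RPKM at 5 mM and 2.64, 0.956 and 0.437 RPKM at 25 mM in H3K18La and 2.4 and 3.55 RPKM at 5 mM and 8.82 and 9.94 RPKM at 25 mM in H3K27Ac. Its H3K18La groups overlapped on 1 to 4 reads per library (adjusted p = 0.787), whereas H3K27Ac rose by 1.53 ± 0.42 (limma, adjusted p = 0.022).

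Akt2 had the largest H3K27Ac change of the 8 genes, a rank that rests on replicate 1 at 25 mM. H3K27Ac over its 7 peaks was 4.6 and 6.31 RPKM at 5 mM and 23.1 and 13.7 RPKM at 25 mM, a 3.37-fold ratio of means. Both 25 mM libraries were far above the 5 mM libraries but also far from each other, and the log2 fold change was 1.64 ± 0.45 (limma, adjusted p = 0.00258). H3K18La was 1.71, 1.01 and 0.458 RPKM at 5 mM and 6.39, 3.34 and 2.52 RPKM at 25 mM, with separate groups and a log2 fold change of 1.55 ± 0.41 (limma, adjusted p = 0.0267). That call was lost without the 5 mM replicate 2 or 3 or the 25 mM replicate 1 or 2 (adjusted p between 0.0648 and 0.0748).

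The 4 Akt2 promoter peaks stand at successive start sites. The first (chr7:27590851-27592566) had 4.18 and 5.82 RPKM at 5 mM and 40.6 and 14.8 RPKM at 25 mM in H3K27Ac. It had the largest H3K27Ac change of the 118 peaks, 2.20 ± 0.49 (limma, adjusted p = 0.014), a rank that rests on replicate 1 at 25 mM. In H3K18La it had 1.38, 1.01 and 1.29 RPKM at 5 mM and 8.3, 1.86 and 1.57 RPKM at 25 mM, where replicate 1 alone made most of the rise and the change did not pass (1.03 ± 0.54, adjusted p = 0.207). The second (chr7:27596621-27597772) had 2.47, 0.67 and 0 RPKM at 5 mM and 11, 5.12 and 4.98 RPKM at 25 mM in H3K18La and 5.62 and 10.3 RPKM at 5 mM and 33.3 and 21.4 RPKM at 25 mM in H3K27Ac. All 25 mM libraries were above the 5 mM libraries and both marks rose, by 2.56 ± 0.58 (limma, adjusted p = 0.00661) and 1.74 ± 0.47 (limma, adjusted p = 0.022). Its H3K18La call was lost without the 5 mM replicate 2 or the 25 mM replicate 1 (adjusted p = 0.057 and 0.062).

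The third Akt2 promoter peak (chr7:27605295-27606309) had 0.934, 0.95 and 0.725 RPKM at 5 mM and 3.51, 3.63 and 1.99 RPKM at 25 mM in H3K18La and 4.78 and 4.76 RPKM at 5 mM and 14 and 14.1 RPKM at 25 mM in H3K27Ac. All 25 mM libraries were higher and both changes passed (limma, adjusted p = 0.0485 and 0.0268), that of H3K18La only with all 6 libraries in the fit. The fourth (chr7:27607385-27607960) had 2.47, 2.01 and 0 RPKM at 5 mM and 7.07, 4.27 and 2.34 RPKM at 25 mM in H3K18La and 4.42 and 7.27 RPKM at 5 mM and 16.4 and 12.6 RPKM at 25 mM in H3K27Ac. The H3K18La groups overlapped and neither change passed (adjusted p = 0.09 and 0.0518). The highest other peak, in intron 1 at chr7:27603015-27604135, had 2.54, 1.72 and 0 RPKM at 5 mM and 8.17, 5.7 and 4.81 RPKM at 25 mM in H3K18La and 7.43 and 10.3 RPKM at 5 mM and 27.2 and 16.8 RPKM at 25 mM in H3K27Ac. Groups were separate in both marks. H3K18La rose (2.13 ± 0.57, adjusted p = 0.0174; lost without the 5 mM replicate 2 or the 25 mM replicate 1 or 2), and H3K27Ac did not pass (1.24 ± 0.46, adjusted p = 0.0659).

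Foxo1 and Foxo3 encode the transcription factors at the end of the pathway. H3K18La over the 11 Foxo1 peaks was 0.75, 1.21 and 0.776 RPKM at 5 mM and 2.95, 2.37 and 2.44 RPKM at 25 mM, with separate groups and a log2 fold change of 1.14 ± 0.22 (limma, adjusted p = 0.00767). H3K27Ac was 1.92 and 2.58 RPKM at 5 mM and 4.46 and 3.44 RPKM at 25 mM, the smallest H3K27Ac change of the 8 genes (0.70 ± 0.35, limma, adjusted p = 0.0903). The difference between the marks, -0.44 ± 0.36, was not called (interval -1.25 to 0.36, adjusted p = 0.844).

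The Foxo1 promoter peak (chr3:52267437-52270383), within 1000 bases of a start site of Gm20402, went from a low to a high rank in H3K18La. Its values were 0.161, 0.589 and 0.25 RPKM at 5 mM and 5.18, 2.5 and 2.17 RPKM at 25 mM, on 1 to 9 reads per library at 5 mM and 19 to 30 at 25 mM, and its mean ranked at percentile 16.2 of all peaks at 5 mM and 74.4 at 25 mM. The log2 fold change was 2.13 ± 0.52 (limma, adjusted p = 0.0105), and the call was lost without the 25 mM replicate 1 (adjusted p = 0.072). H3K27Ac was 2.12 and 2.24 RPKM at 5 mM and 9.1 and 4.48 RPKM at 25 mM and rose by 1.37 ± 0.43 (limma, adjusted p = 0.0338). The highest other peak, in intron 1 at chr3:52273699-52275461, had 1.61, 2.3 and 1.25 RPKM at 5 mM and 4.62, 4.46 and 4.59 RPKM at 25 mM in H3K18La and 3.67 and 4.84 RPKM at 5 mM and 6.55 and 7.33 RPKM at 25 mM in H3K27Ac. Groups were separate in both marks and only H3K18La passed (limma, 1.21 ± 0.37, adjusted p = 0.0308, against 0.65 ± 0.41 and 0.286), a call lost without any 1 library but the 5 mM replicate 2 (adjusted p up to 0.0969). Of the other 9 Foxo1 peaks, 1 rose in H3K18La and 0 in H3K27Ac, beside 20.7% and 11.9% of all non-promoter peaks.

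Foxo3 carried the strongest H3K18La of the 8 genes. Its level over 31 peaks was 2.15, 2.14 and 2.04 RPKM at 5 mM and 8.04, 7.75 and 7.95 RPKM at 25 mM, a 3.75-fold ratio of means, which ranked at percentile 94.6 of all genes at 5 mM and 96.5 at 25 mM. The libraries within each group were nearly alike, and the log2 fold change was 1.69 ± 0.12 (limma, adjusted p = 3.51e-04). H3K27Ac was 5.26 and 8.33 RPKM at 5 mM and 19.5 and 16.9 RPKM at 25 mM, with a log2 fold change of 1.38 ± 0.46 (limma, adjusted p = 0.0101). All 31 Foxo3 peaks had a higher fitted level at 25 mM in both marks, as had 88797 and 84492 of all 108253 peaks in H3K18La and H3K27Ac. Of the 31, 23 rose in H3K18La and 15 in H3K27Ac, beside 20.6% and 16.4% of all peaks.

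The 19 peaks of Foxo3 intron 2, pooled, had 2.99, 2.75 and 2.54 RPKM at 5 mM and 11.1, 10.8 and 10.8 RPKM at 25 mM in H3K18La and 7.18 and 11.2 RPKM at 5 mM and 24.6 and 22.8 RPKM at 25 mM in H3K27Ac. Of these 19 peaks, 17 rose in H3K18La and 9 in H3K27Ac, beside the same 20.7% and 11.9%, and in 18 every 25 mM H3K18La library was above every 5 mM library (36.6% of all peaks). The highest one over all libraries, at chr10:42241763-42242073, had 3.05, 7.44 and 0 RPKM at 5 mM and 21.3, 22.1 and 13 RPKM at 25 mM in H3K18La and 5.95 and 25.4 RPKM at 5 mM and 36.2 and 45.9 RPKM at 25 mM in H3K27Ac. It had the largest H3K18La change of the 118 peaks, 2.96 ± 0.70 (limma, adjusted p = 0.00865), on 0 to 12 reads per library at 5 mM, and the call was lost without the 25 mM replicate 1 or 2 (adjusted p = 0.068 and 0.065). The H3K27Ac of this Foxo3 peak rose by 1.68 ± 0.56 (limma, adjusted p = 0.0455), and its printed window holds 1 GC box.

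A wider neighbour (chr10:42238935-42240321) was chosen after its values were seen. It had the smallest H3K18La adjusted p of the 118 peaks, so its test is a description only. Its H3K18La was 5.13, 4.45 and 3.19 RPKM at 5 mM and 19.4, 19.5 and 20.2 RPKM at 25 mM, with the 25 mM libraries close together, and the log2 fold change was 2.11 ± 0.25 (limma, adjusted p = 1.91e-04). Its 25 mM mean ranked at percentile 99.2 of all peaks. The Foxo3 promoter peak (chr10:42276317-42278975) was much lower in H3K18La, at 0.713, 0.943 and 0.831 RPKM at 5 mM and 6.7, 2.77 and 2.28 RPKM at 25 mM, and the call (1.60 ± 0.48, limma, adjusted p = 0.0281) was lost without the 5 mM replicate 1 or 2 or the 25 mM replicate 1 or 2 (adjusted p between 0.058 and 0.138). H3K27Ac at the promoter was 3.39 and 4.9 RPKM at 5 mM and 28.4 and 13.5 RPKM at 25 mM, where replicate 1 again led, and rose by 2.13 ± 0.46 (limma, adjusted p = 0.0135).

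Over the 118 peaks, 53 (44.9%) rose in H3K18La and 0 fell, where 20.6% of all peaks were called higher. In H3K27Ac 35 (29.7%) rose and 0 fell, where 16.4% of all peaks were called higher. Igf1r and Foxo3, with 51 and 31 of the 118 peaks, held 23 each of the 53 H3K18La calls, and 11 and 15 of the 35 H3K27Ac calls. Peaks of 1 gene share its locus and are not independent. The median log2 fold change was 1.28 for H3K18La and 1.04 for H3K27Ac, beside the 0.76 and 0.58 of all peaks. Pooled over peaks, the ratio of means at 25 mM over 5 mM was 3.09 and 2.46, beside 2.74 and 2.39 for all peaks. The 118 peaks had higher levels, with medians of 1.43 and 3.92 RPKM at 5 mM beside 0.89 and 1.33. The pseudocount understates the change of low values, so the medians and shares called are not matched for level. All 25 mM libraries lay above all 5 mM libraries at 75 of 118 peaks in H3K18La (36.6% of all peaks) and at 98 in H3K27Ac (53% of all peaks). The H3K18La count was 32 without the 5 mM replicate 2, 30, 21 and 32 without the 25 mM replicates 1, 2 and 3, and 47 and 46 without the 5 mM replicates 1 and 3. Among all 108253 peaks the same fits called 16853, then 14260, 12138 and 14886, and then 20018 and 21212, against 22474 with all libraries. The H3K27Ac count was 0 without any 1 library, with 6 to 80 peaks at an unadjusted p under 0.05.

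**Figure D3:**
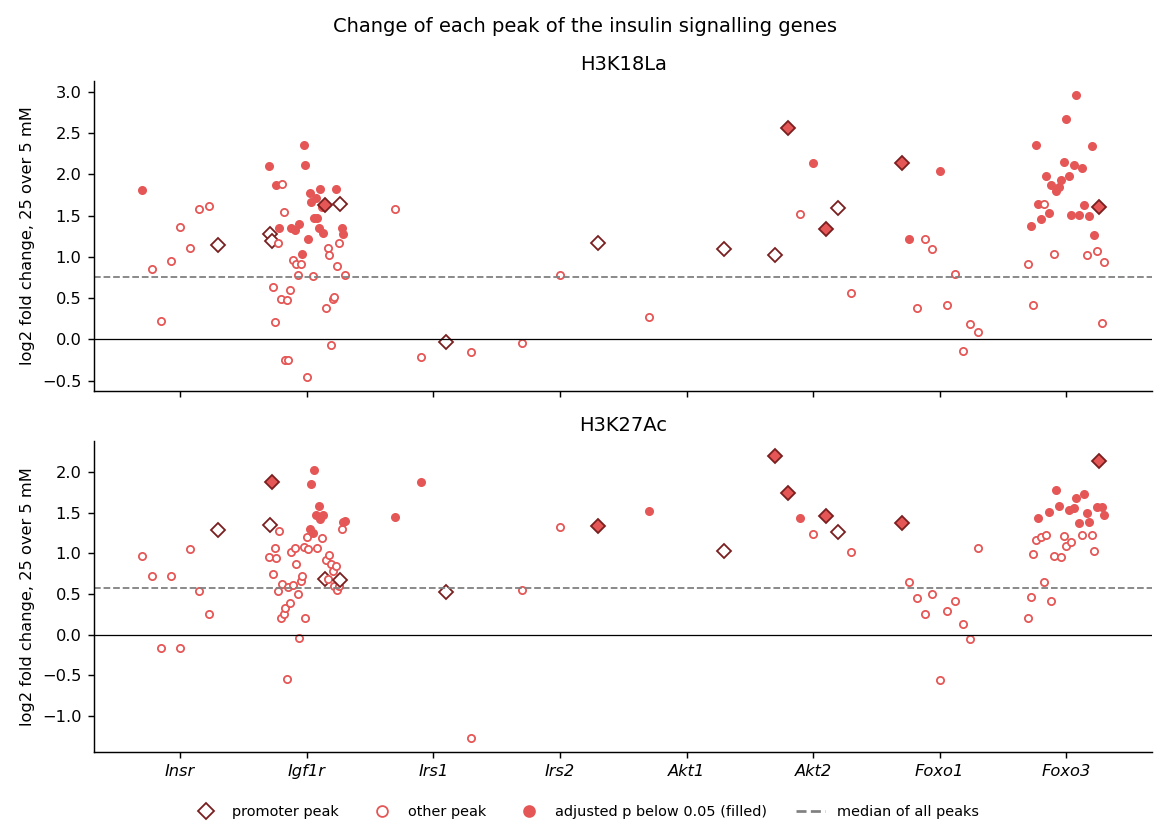
Log2 fold change at 25 over 5 mM glucose (vertical axes) of each of the 118 peaks, grouped by gene in genomic order, for H3K18La (top) and H3K27Ac (bottom), with diamonds for promoter peaks, filled symbols for adjusted p below 0.05 and a dashed line for the median of all peaks. Nearly all Foxo3 peaks lie above the dashed line in both marks, while 3 of the 4 Irs1 peaks lie just below 0 in H3K18La.

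Promoters and other peaks were also counted apart. Of 14 promoter peaks 5 rose in H3K18La (20.4% of all promoter peaks) and 7 in H3K27Ac (40.6% of all promoter peaks). Of 104 other peaks 48 rose in H3K18La (20.7% of all other peaks) and 28 in H3K27Ac (11.9% of all other peaks). The level in the pooled promoter peaks over that in the pooled other peaks was 0.612, 0.608 and 0.436 for H3K18La at 5 mM and 0.905, 0.570 and 0.461 at 25 mM. For H3K27Ac it was 0.965 and 0.8 at 5 mM and 1.49 and 0.891 at 25 mM. Replicate 1 at 25 mM stood above the other libraries in both marks, and the same ratio over all peaks of the table was 1.11 against 0.859 and 0.811 in H3K18La and 2.61 against 1.99 in H3K27Ac. Without that library of the mark, 1 of 14 promoter peaks rose in H3K18La (1754 of all 17144 promoter peaks) and 0 in H3K27Ac (0 of 17144, limma, with 1642 at an unadjusted p under 0.05), and the part of the library in the promoter changes beyond this was not tested.

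**Figure D4:**
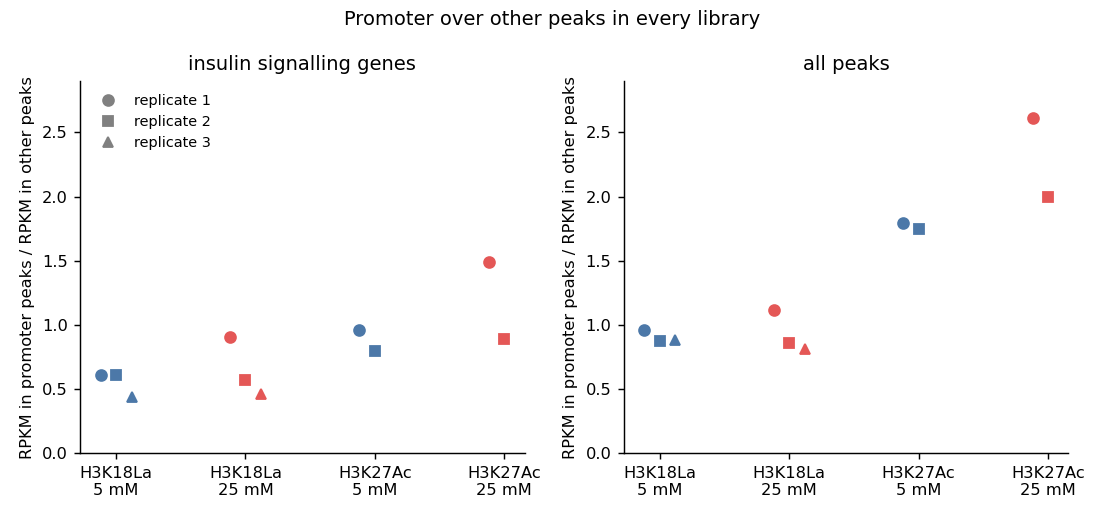
Ratio of pooled RPKM in promoter peaks to pooled RPKM in other peaks (vertical axes, linear from 0) in every library, for the 8 insulin signalling genes (left) and for all peaks (right), by mark and glucose, with symbols for replicates. Replicate 1 at 25 mM is the highest library of its group in both marks, at 0.905 and 1.49 for the 8 genes.

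Levels of the marks were related over the 118 peaks, with a Spearman correlation between mean H3K18La and mean H3K27Ac RPKM of 0.710 at 5 mM and 0.849 at 25 mM, beside 0.541 and 0.732 over all 108253 peaks. The log2 fold changes were less related, at 0.32 beside 0.443. These are descriptions over peaks, which share libraries and loci. The difference between the changes of the 2 marks was called at 0 of 118 peaks (0% of all peaks, limma over all 10 libraries), with 4 of 118 and 4988 of 108253 at an unadjusted p under 0.05. It was called in 0 of 8 genes (0% of all genes), with 0 of 8 and 1580 of 25400 at an unadjusted p under 0.05. Across the 10 libraries, gene-level log2(RPKM + 0.5) of Igf1r was most like that of Foxo3 (Pearson r = 0.996, a description), that of Insr like Akt2 (0.960), Irs1 like Irs2 (0.917), Irs2 like Akt1 (0.969), Akt2 like Akt1 (0.963) and Foxo1 like Foxo3 (0.972). These libraries pool both marks and both glucose levels, and even the least alike partners of the 8 genes had r of 0.794 to 0.901.

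The calls depended on how the libraries were scaled. With each library scaled to its own reads in peaks, 0 of 118 peaks and 0 of 8 genes were called in either mark (limma), with 11 and 17 peaks and 1 and 0 genes at an unadjusted p under 0.05 in H3K18La and H3K27Ac. Among all features, 0 of 108253 peaks and 0 of 25400 genes were called in either mark, with 10471 and 15738 peaks and 4008 and 5485 genes at an unadjusted p under 0.05. On that scale, reads per kilobase and 1000000 reads in peaks over Foxo3 were 17.9, 18 and 17.2 at 5 mM and 23, 24.5 and 25.5 at 25 mM for H3K18La, still separate, with a log2 fold change of 0.41 ± 0.11 (adjusted p = 0.211). Those over Irs1 were 8.46, 5.4 and 10.4 at 5 mM and 4.5, 5 and 3.86 at 25 mM, which is lower in every 25 mM library, at -0.60 ± 0.27 (adjusted p = 0.336). Those over Igf1r were 15, 13.5 and 13.8 at 5 mM and 13.6, 14.2 and 13.6 at 25 mM, with the groups in the same range. For H3K27Ac, Akt2 had 21.8 and 20 at 5 mM and 33.3 and 24.3 at 25 mM (log2 fold change 0.43 ± 0.20, adjusted p = 0.265) and Foxo1 had 9.07 and 8.19 at 5 mM and 6.42 and 6.09 at 25 mM (-0.40 ± 0.18, adjusted p = 0.260). When library medians were made equal instead, Igf1r and Foxo3 stayed called in H3K18La and 0 genes were called in H3K27Ac (4 at an unadjusted p under 0.05), beside 2513 and 2152 of all 25400 genes.

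**Figure D5:**
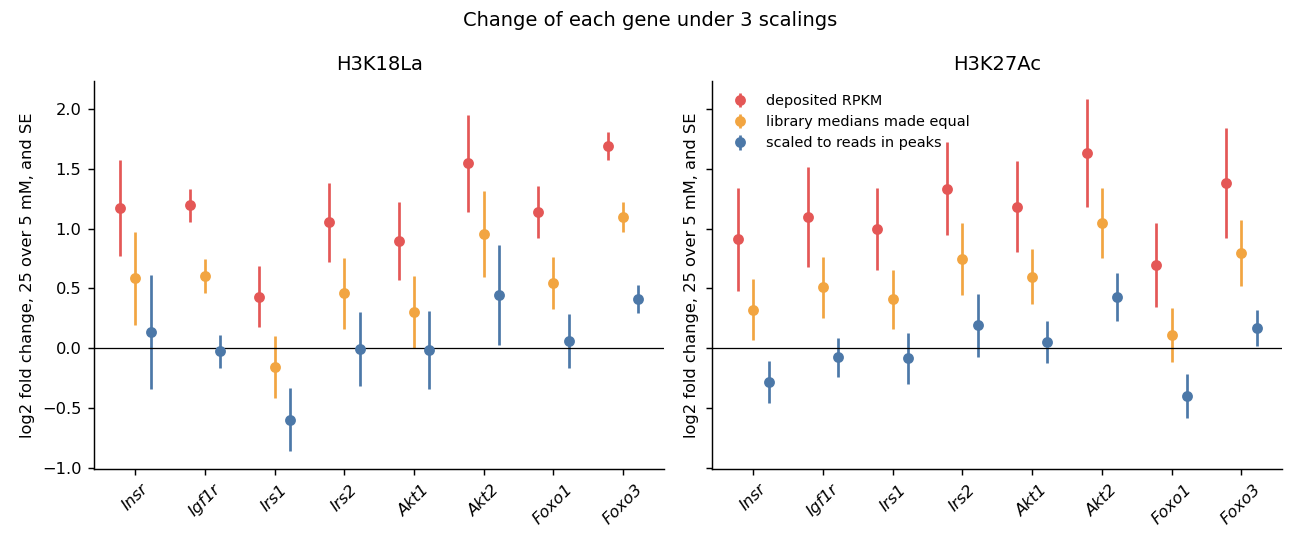
Log2 fold change at 25 over 5 mM glucose with SE (vertical axes) of each gene, for H3K18La (left) and H3K27Ac (right), with the deposited RPKM, with library medians made equal and with libraries scaled to their reads in peaks. With the deposited values and when scaled to reads in peaks, Irs1 is lowest in H3K18La and Foxo1 in H3K27Ac, while all values move down, to between -0.60 and 0.44 for H3K18La and between -0.40 and 0.43 for H3K27Ac in the latter.

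Other genes of the pathway were counted in the same way, beside the 30.9% and 43.3% of all genes called higher. Of 37 further insulin and PI3-kinase genes 35 had peaks (Irs4 and Cbl were not analysed here), and 20 rose in each mark with 0 lower, with median log2 fold changes of 0.84 for H3K18La and 0.85 for H3K27Ac. The largest H3K18La rise was that of Trib3, a pseudokinase known to bind Akt, at 1.58, 0.735 and 1.75 RPKM at 5 mM and 7.51, 4.33 and 3.85 RPKM at 25 mM. All 25 mM libraries were higher, with a log2 fold change of 1.62 ± 0.32 (limma, adjusted p = 0.00879). This rank too is that on log2(RPKM + 0.5), and by ratio of means Ptpn1 rose slightly more, from 1.29 to 5.10 RPKM. The largest H3K27Ac rise was that of Pik3r3, a regulatory subunit of PI3-kinase, at 5.42 and 9.18 RPKM at 5 mM and 33.9 and 19.8 RPKM at 25 mM. Its log2 fold change was 1.80 ± 0.47 (limma, adjusted p = 0.0016). The rank is that on log2(RPKM + 0.5), and by ratio of means Igf1 rose more, from 0.328 to 2.26 RPKM. Of 18 genes of the AMPK and mTOR pathways, which sense energy and nutrients beside insulin, 17 had peaks, and 10 rose in H3K18La and 12 in H3K27Ac with 0 lower, at medians of 1.18 and 1.06.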

How the data were processed

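CUT&Tag was analysed in 10 libraries of 4 groups, H3K18La and H3K27Ac at 5 or 25 mM glucose. Per the study's methods, the authors aligned reads to GRCm38 with nf-core/cutandrun 3.1, called peaks with MACS, kept peaks with a −log10 q above 6 in at least 2 replicates outside the blacklist, annotated them with ChIPseeker 1.34.1 and Ensembl 102 (promoter, 1000 bases before to 500 after a start site) and normalized with csaw 1.32.0 over windows of 10000 bases and edgeR 3.40.2. The deposited table gives RPKM per peak and library. A table of the authors' own H3K18La comparison (log2 fold changes, p-values and FDR) was not used. Each value was a whole number of reads within 0.01, with the smallest nonzero one of each library taken as a single read, so read counts were recovered. Legends of the study's related tables give values per mapped reads, and for this table the denominator is not stated. The methods quantify peaks merged over ages of developing retina for differential binding and peaks of both marks merged for the explants, and this table has as many peaks as the former set.

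Log2(RPKM + 0.5) was tested with limma 3.58.1 in R 4.3.3 (trend, robust), each mark alone and an interaction over all 10 libraries, over 108253 peaks and over 25400 genes (reads and widths summed by symbol), with Benjamini-Hochberg adjustment at 0.05. For H3K27Ac genes the robust fit took the spread wholly from all genes, which was not so without the robust option. All promoter peaks, the sum over peaks and the highest non-promoter peak of each of the 8 genes were named whatever their values, as was the largest rise of the wider insulin list in each mark. The genes and lists were chosen with earlier results of these data known. On simulated data with 20% of features raised, 60.9% of peaks raised 3-fold were called for H3K18La and 52.7% for H3K27Ac (108253 peaks), and 72.9% and 73.5% of genes (25400). With few features changed (59 to 71 by 3-fold), 0% of such peaks were called in either mark, and 18.6% and 0% of such genes. Changed features were drawn only from those above a floor of expected reads, so these shares do not cover the sparser peaks. No pairing of samples by replicate number was seen (correlation of deviations within a mark -0.004 to 0.024, and between marks -0.027 to 0.134, highest for replicate 1 at 25 mM). Peaks held few reads, and the deviations of 2 H3K27Ac libraries mirror each other, so this check cannot exclude pairing. Alternatives were other pseudocounts, thresholds, filters and scalings, voom on the recovered reads, a replicate block and leaving out each library. Read counts carry counting error only, and PCR copies are not independent molecules. Python 3.11.15, pandas 2.3.3, scipy 1.17.1 and matplotlib 3.10.9 were used.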

Additional observations from a re-analysis of the deposited data

Results flagged for a closer look

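In intron 1 of Foxo1, the peak at chr3:52303150-52303725 had values that differed in opposite directions in the 2 marks. Its H3K18La was 0.823, 0 and 0 RPKM at 5 mM and 1.77, 1.71 and 4.1 RPKM at 25 mM, on 0 to 7 reads per library, and its H3K27Ac was 2.81 and 2.52 RPKM at 5 mM and 1.45 and 1.87 RPKM at 25 mM, on 6 to 9 reads. All H3K18La libraries were higher at 25 mM and both H3K27Ac libraries were lower. The difference between the log2 fold changes (H3K27Ac minus H3K18La) was -2.60 ± 0.80 (SE), at an unadjusted p of 0.00494 and an adjusted p of 0.971 over all peaks (limma), so it did not pass. The H3K18La change alone passed (2.04 ± 0.60, limma, adjusted p = 0.0275) and that of H3K27Ac did not (-0.56 ± 0.41, adjusted p = 0.373).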

How the results depend on the processing

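The H3K18La calls (53 peaks, 5 genes) became 20 and 3 at a threshold of 0.01 (11775 of 108253 peaks and 4238 of 25400 genes among all), 7 and 2 with library medians made equal (5434 and 2513 among all) and 0 and 0 with libraries scaled to reads in peaks. With 1 library left out they ranged from 21 to 47 peaks (12138 to 21212 among all 108253) and 3 to 5 genes. The H3K27Ac calls (35 peaks, 6 genes) became 0 and 3 at 0.01 (86 and 6345 among all), 0 and 0 without the robust option (0 and 0 among all; 62 of the 118 peaks and 7 of the 8 genes at an unadjusted p under 0.05), 7 and 0 with equal medians (5533 and 2152 among all) and 0 and 0 scaled to reads in peaks, and ranged from 0 to 0 peaks and 0 to 3 genes with 1 library left out. H3K27Ac peak calls were also 0 with a pseudocount of 0.1 (0 of all peaks; 72 of the 118 at an unadjusted p under 0.05) and 54 among peaks of mean RPKM of at least 1 (25396 of all 72442). With the replicate number as a block, for which no pairing was shown, calls were 40 and 13 peaks and 5 and 0 genes for H3K18La and H3K27Ac, and 0 for the difference between marks (18471 and 8518 of all peaks and 6601 and 1681 of all genes). Voom on the recovered reads called 69 and 48 peaks, of which 0 and 1 were lower, and 6 and 7 genes (27956 and 21907 of all peaks and 9598 and 10583 of all genes). The median H3K18La change of the peaks (1.28) was 1.60 and 1.06 with pseudocounts of 0.1 and 1, 0.65 with equal medians, 0.17 scaled to reads in peaks and 1.08 to 1.35 with 1 library left out. That of H3K27Ac (1.04) was 0.61, -0.0948 and 0.71 to 1.30 under the last 3. The cause of these shifts was not tested.

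Some directions turned. Scaled to reads in peaks, H3K18La log2 fold changes became -0.0446 at the highest non-promoter peak of Insr, -0.0127 for Igf1r, -0.13 for Irs2, -0.70 for Akt1 and -0.0061 for Foxo1, -0.11 at the first Akt2 promoter peak, and -0.0275, -0.60, -0.0055 and -0.0143 over Igf1r, Irs1, Irs2 and Akt1. Those of H3K27Ac became -0.13 and -0.52 at the highest non-promoter peaks of Insr and Foxo1, -0.49 and -0.48 at the third and the fourth Igf1r promoter peaks, -0.59 and -0.0908 at the Irs1 and Akt1 promoters, and -0.29, -0.0777, -0.0836 and -0.40 over Insr, Igf1r, Irs1 and Foxo1. With equal medians H3K18La was -0.36 at the Akt1 intergenic peak (from -0.20, without the 25 mM replicate 1, to 0.67 with 1 library left out) and -0.16 over Irs1. The Irs1 promoter, at -0.03, was -1.13 scaled to reads in peaks, -0.66 with equal medians and 0.17 with voom, and ranged from -0.22 to 0.34 with 1 library left out, above 0 without the 5 mM replicate 3 (0.34) or the 25 mM replicate 2 (0.0331). The Akt1 promoter peak gave no H3K18La value under the filter on mean RPKM. Of single genes and peaks, 194 values with 1 library left out kept their direction and side of the threshold, 99 kept only the direction, 4 gained a call and 3 turned. Under the other alternatives 325 kept both, 101 lost and 30 gained a call, and 23 turned. The 1 to 7.5 reads in the median peak of an H3K18La library at 5 mM limit what can be seen in single peaks.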
